A study of Homo sapiens with 16 samples.

Results

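The values described here are those of 1 comparison made by the submitters with RBM33 as bait, in a study of RNA bound to tagged proteins (RIP-seq). Every row of the authors' deposited table for this comparison was taken, which is 16324 of the 16324 annotated genes it lists. The cells are labelled UM-SCC-1, a line grown from a squamous carcinoma of the head and neck. Per the labels' protocols they were infected with lentivirus that carries a Strep-tagged construct and selected with puromycin, so every group shares the infection and the drug. Strep is a short peptide tag held by StrepTactin-XT beads. By their titles, 2 libraries of Strep-RBM33 RIP-seq and 2 of Strep-RBM33 RIP-seq input belong to this bait, out of 16 in the series. Whether these are separate cultures is not said, and the p-values of the authors may then rest on technical spread alone. A viral construct drives RBM33 in both the pull-down and the input cells.

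The comparison carries the label siCtrl, read here as a control siRNA, and no sample title names such a treatment. For each gene the authors' deposited table gives log2 values of fold change and of average abundance (CPM, read counts scaled to library size), beside F and p. It holds no value per library, so depth, replicate spread and n cannot be given for any gene, and whether values in the libraries overlap is unknown here. Neither the contrast nor its direction is stated in it. Residual degrees of freedom worked out from F and p reached as low as 2.61 over 4300 abundant genes, and 51 of these lay under the 6 that a fit with the vector libraries would leave. None lay under the 2 that RBM33 pull-down against its own input leaves, which makes that the likely contrast. Values are therefore given as positive or negative, with the sign of the authors' deposited table. If the vector libraries did not enter, RNA held by the beads alone was not subtracted.

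RBM33 is an RNA-binding protein known for binding RNA with the methyl mark m6A and for bringing the demethylase ALKBH5 to such RNA. Small nucleolar RNAs (snoRNAs) guide chemical changes of ribosomal RNA in the nucleolus, and most of them are cut out of introns of host genes. Small Cajal body RNAs (scaRNAs) do the same for the RNAs of the spliceosome, and small nuclear RNAs (snRNAs) are mostly those RNAs. Libraries from total RNA read all of these beside mRNAs and long noncoding RNAs (lncRNAs). The kit reads fragmented RNA, so a small RNA and the transcript around it can give reads to the same bases.

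The labelled line was set against marker genes. Of 24 markers of squamous epithelium, 8 were listed in the authors' deposited table, and KRT5, KRT14 and TP63, which define basal squamous cells, were not. Of the 8, the desmosomal genes PERP and DSC3 had the highest average log2 CPM, 5.88 and 5.46, and EGFR had 4.43. Of 8 markers of a line from embryonic kidney, 5 were listed in the authors' deposited table, with the neurofilament genes NEFL and NEFM at 7.42 and 7.18 and LIN28B at 6.39. Of 6 fibroblast markers 3 were listed, and of 4 leukocyte markers 0. The cells are called by their label throughout.

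Sequences are shown for microRNA genes, the small RNA class held by the RefSeq table used. Of 50 microRNA rows, 41 matched RefSeq entries (GRCh38.p14), with 53 mature sequences and 53 distinct seeds, so no seed joined members of different name. The sequences below are those of rows that lay close to another transcript at the same bases, or far from it. The seed, bases 2 to 8 of the mature RNA, is in capitals. hsa-miR-1248 and hsa-miR-6516-5p come from genes that overlap a snoRNA and a scaRNA, hsa-miR-5047 and both arms of miR-3064 from within DDX5, hsa-miR-1244 from PTMA, hsa-miR-3652 from HSP90B1 and hsa-miR-4721 from TUFM. hsa-miR-3648 lies on the short arm of chromosome 21, where the genes of ribosomal RNA are.
hsa-miR-1248: aCCUUCUUguauaagcacugugcuaaa
hsa-miR-6516-5p: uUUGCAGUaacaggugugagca
hsa-miR-5047: uUGCAGCUgcgguuguaaggu
hsa-miR-3064-5p: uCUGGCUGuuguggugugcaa
hsa-miR-3064-3p: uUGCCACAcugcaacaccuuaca
hsa-miR-1244: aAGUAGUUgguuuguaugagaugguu
hsa-miR-3652: cGGCUGGAggugugagga
hsa-miR-4721: uGAGGGCUccaggugacggugg
hsa-miR-3648: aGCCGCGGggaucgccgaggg

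The annotated genes themselves are longer than these mature RNAs. In the hairpins of MIR1248 (chromosome 3, 186786672 to 186786777, plus strand) and MIR1244-1 (chromosome 2, 231713314 to 231713398, plus strand), both on GRCh38.p14, the capitals mark the mature part.
MIR1248 hairpin: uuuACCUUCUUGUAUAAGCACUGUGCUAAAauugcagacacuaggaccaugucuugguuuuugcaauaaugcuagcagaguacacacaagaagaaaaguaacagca
MIR1244-1 hairpin: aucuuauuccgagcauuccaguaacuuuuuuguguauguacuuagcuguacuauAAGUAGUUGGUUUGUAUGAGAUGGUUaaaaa

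Positive and negative values were both common. At an adjusted p under 0.05 in the authors' deposited table (edgeR, Benjamini-Hochberg adjustment), 51.1% of the 16324 genes were called: 3925 positive, which is 24.0%, and 4413 negative, which is 27.0%. The median log2 fold change over all rows was -0.02, and the middle 50% of rows lay between -0.80 and 0.83. Calls depended on abundance. In the lowest decile of average log2 CPM 8.39% of rows were called and in the highest decile 80.6%. Negative calls made up 2.45% of the lowest decile and 60.0% of the highest, while positive calls moved between 5.94% and 30.6% without such a climb.

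The bait's own gene came first among mRNAs by average abundance, though not by fold change. RBM33 (ENSG00000184863, chromosome 7, 155644451 to 155781485, plus strand, hg38) had a log2 fold change of 3.41 and an average log2 CPM of 13.90 in the authors' deposited table (F = 68.6, adjusted p = 5.14e-05). No other protein-coding row had a higher average log2 CPM. Both arms of the likely contrast hold the RNA of the viral construct, and how much of the value comes from it was not tested.

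Gene types separated widely. snoRNAs stood highest, with 82 of 90 positive, 0 negative and a median log2 fold change of 4.16, beside 24.0% positive over all rows. scaRNAs followed with 13 of 13 positive (median 3.53), and snRNAs with 50 of 63 positive and 1 negative (median 2.03). The negative row was RN7SK at -0.79, which is typed as snRNA but is no RNA of the spliceosome. Rows typed as ribosomal RNA were positive for 20 of 24 and negative for 0 (median 1.87). lncRNAs had 598 positive and 84 negative of 1671 (median 0.85). Protein-coding rows had 2838 positive and 4120 negative of 13210 (median -0.13). Processed pseudogenes, copies made from reverse-transcribed mRNA, lay lowest of the large types, with 60 positive and 133 negative of 513 (median -0.49). The median of lncRNAs lay between 0.67 and 1.02 in each quintile of average log2 CPM. That of protein-coding rows went from 0.29 in the lowest quintile to -0.61 in the highest.

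**Figure D1:**
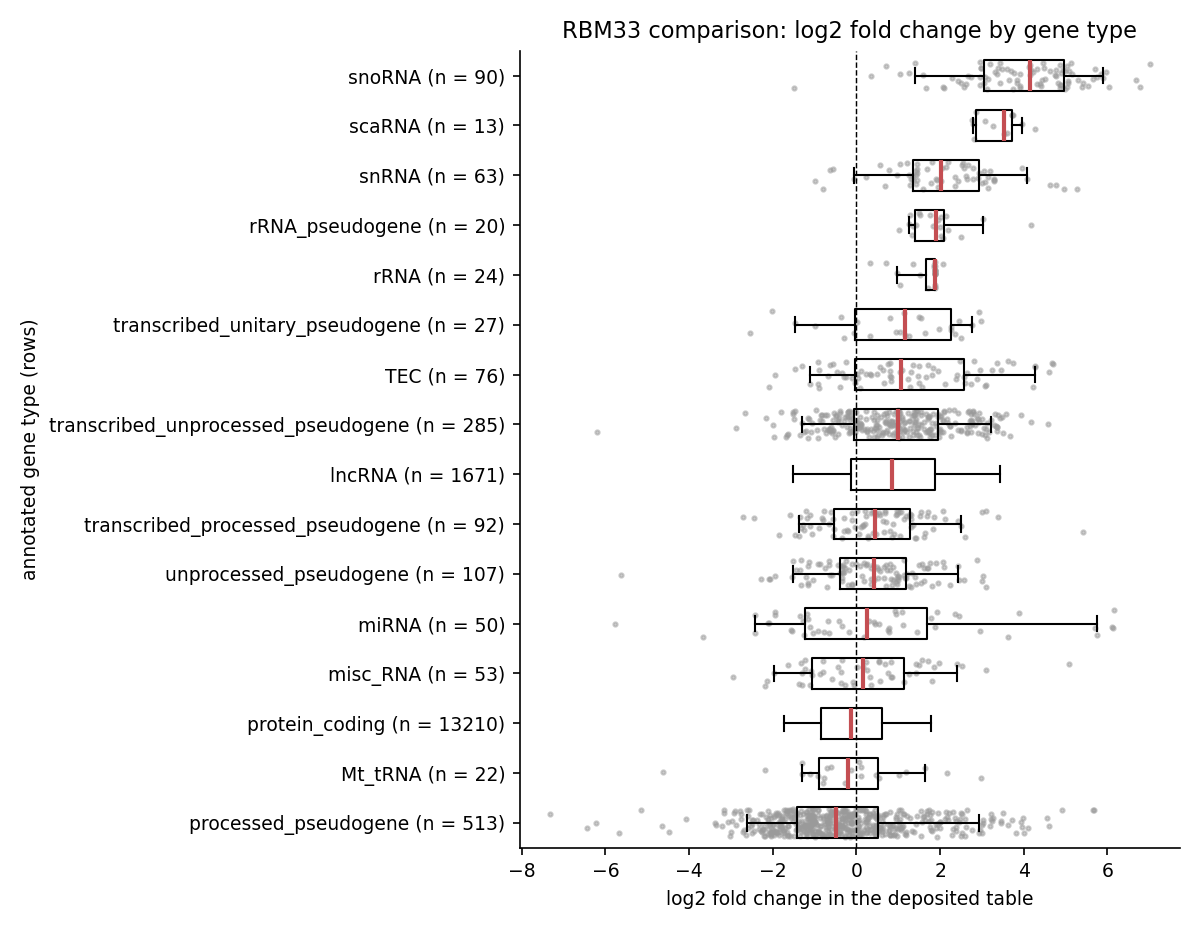
Log2 fold change as deposited by the authors (x axis) for every annotated gene type with at least 13 rows (y axis, number of rows in brackets). Boxes span the quartiles, red lines are medians, whiskers run from the 5th to the 95th percentile, and grey points are single rows for types of up to 513 rows; snoRNA and scaRNA rows lie almost wholly right of 0, with medians of 4.16 and 3.53.

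Both snoRNA families took part. H/ACA box snoRNAs, which guide pseudouridylation, were positive for 49 of 51 rows (median 4.49, from 1.03 to 7.01). C/D box snoRNAs, which guide methylation of the ribose, were positive for 28 of 32 (median 3.91, from 0.36 to 5.96). Rows named SCARNA were positive for 16 of 16 and kept to a narrower range, 2.77 to 4.26 (median 3.43). SNORA22 (chromosome 7, 65755526 to 65755659) had the highest value of all rows in the authors' deposited table, 7.01 (F = 464, adjusted p = 5.08e-07). SNORA71A had 6.79 (adjusted p = 2.25e-06) and SNORA66 6.69 (adjusted p = 3.64e-06) in the authors' deposited table. All 3 are H/ACA box RNAs of 133 or 134 bases.

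The most abundant snoRNAs were positive as well. SNORA73B and SNORA73A, the U17 RNAs that act in processing of ribosomal RNA, had 5.75 and 6.04 in the authors' deposited table at average log2 CPM of 8.51 and 7.29. SNORD3A, a gene of U3, which the first cuts of the ribosomal RNA precursor need, had 4.76 at 9.15 (adjusted p = 1.58e-06). SNORD15B had 5.29 at 8.17. Of the 8 rows without a call, SNORA59A (1.27), SNORA59B (1.03), SNORD86 (1.66), SNORD2 (1.40) and SNORD49B (0.36) had average log2 CPM between 0.984 and 1.53, and SNORD43 (2.06) had -0.11. A row named U3 had 0.71 at 3.05 (adjusted p = 0.131). The single snoRNA row with a negative sign, AP000254.1, stood at -1.49 with an average log2 CPM of -0.38 and no call (adjusted p = 0.294).

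Many small RNA genes lie inside a longer listed gene on the same strand, which allows both rows to be read side by side. A host was taken as a row of more than 1000 bases of listed length, and where several qualified, the most abundant was used. SNORA17B and SCARNA4 are each listed as 2 equal rows, which the counts by gene type include and which were paired once here. With these counted once, a host was found for 79 snoRNAs and 11 scaRNAs, which gave 90 pairs with 70 hosts. In 11 of these pairs more than 1 host was possible. The small RNA row was higher than its host in 87 of 90 pairs, by a median of 4.00 log2 units. Of these small RNAs 82 were positive and 0 negative, while their hosts split into 33 positive and 45 negative. In 41 pairs the small RNA was positive and the host negative. The choice of host matters for some: SNORA73A and SNORA73B were paired with RCC1 at -0.66 in the authors' deposited table, and both also lie within SNHG3 at 3.98. Rows of a pair can share reads.

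Hosts that encode ribosomal proteins gave the widest gaps. In 20 such pairs all 20 host rows were negative (median -1.39) and 19 of the small RNAs positive (median 4.90). The gap ran from 3.56 to 8.58 log2 units. SNORA66 stood at 6.69 and its host RPL5, a protein of the large ribosomal subunit, at -1.89 in the authors' deposited table. SNORA27 had 5.52 against -1.97 for RPL21, and SNORA64 had 5.90 against -1.30 for RPS2. These are intronic RNAs of some of the most abundant mRNAs of a cell. Where the host is an SNHG transcript, a noncoding host whose spliced RNA has no long reading frame, both rows were mostly positive, with medians of 4.90 for 13 small RNAs and 1.31 for their hosts.

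**Figure D2:**
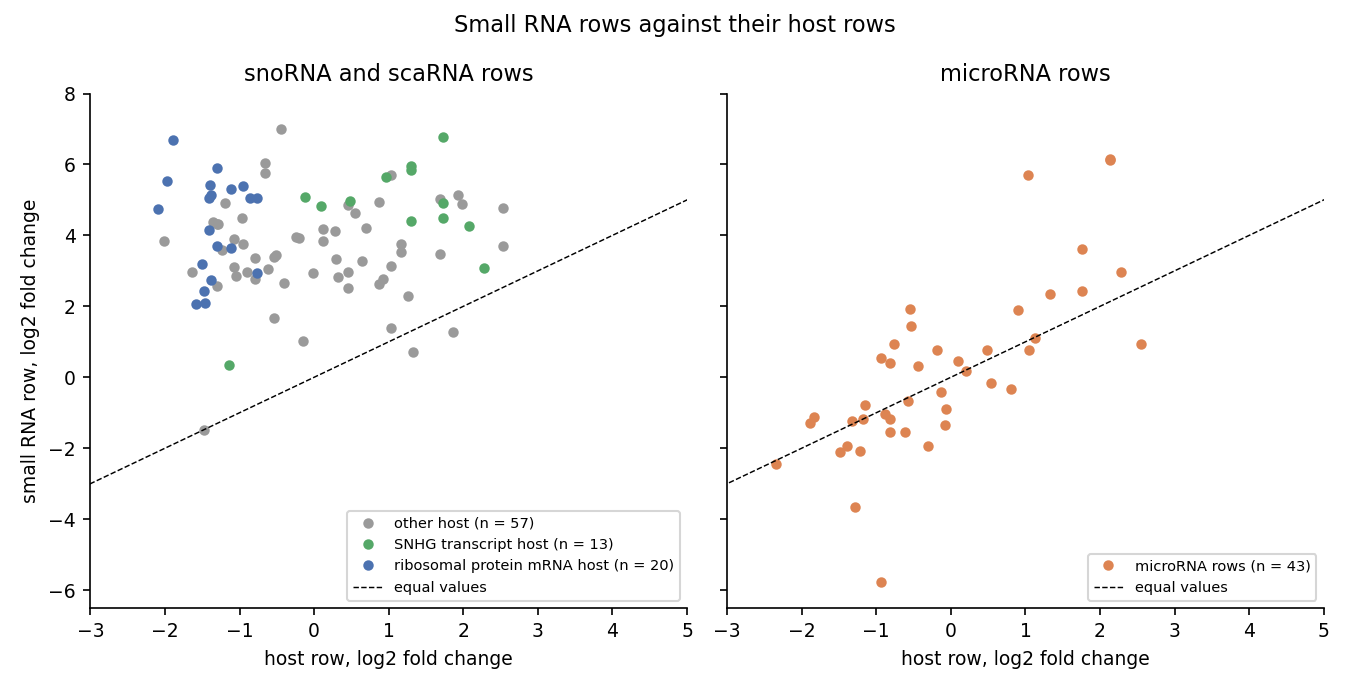
Log2 fold change of a small RNA row (y axis) against that of the row of its host gene (x axis), for 90 snoRNA and scaRNA rows at left, coloured by class of host, and 43 microRNA rows at right; each point is 1 pair and the dashed line marks equal values. At left 87 of 90 points lie above the line; at right 27 of 43 lie within 1 log2 unit of it, with a median difference of 0.01.

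A single host showed the same spread. EIF4A2, an RNA helicase of translation initiation, had 1.03 in the authors' deposited table (adjusted p = 0.000221). Within its introns SNORA81 stood at 5.71, SNORA4 at 3.14 and SNORD2 at 1.40, the last without a call. Their average log2 CPM fell in the same order, 4.25, 1.95 and 1.42. The microRNA gene MIR1248, whose hairpin is shown above, covers much of the bases of SNORA81 and had 5.70 at an average log2 CPM of 4.23, so both rows hold nearly the same reads.

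MicroRNA rows as a class lay near the background. Of 50 rows 13 were positive and 11 negative, 26.0% and 22.0% beside 24.0% and 27.0% over all rows, with a median of 0.24. For the 43 with a host, the microRNA was higher in 22 pairs, the median difference was 0.01, and the signs were the same in 34. These rows too can share reads. In 27 of 43 pairs the rows lay within 1 log2 unit of each other. MIR1244-1 had -2.43 and its host PTMA, which encodes the nuclear protein prothymosin alpha, had -2.35 in the authors' deposited table. MIR3652 had -1.17 and HSP90B1, a chaperone of the endoplasmic reticulum, -1.18. MIR4721 had -1.25 and TUFM, the mitochondrial elongation factor, -1.33.

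Some microRNA rows lay far from their hosts, on either side. MIR5047 had 3.62 in the authors' deposited table, and DDX5, the RNA helicase gene around it, 1.76. MIR3064, also within DDX5, was nearer at 2.44. MIR4444-1 had 1.92 against -0.55 for HNRNPA3, and MIR1292 had 1.46 against -0.54 for NOP56, a core protein of C/D box particles. Their average log2 CPM, 1.73 and 2.18, was far below that of their hosts, 7.97 and 8.74. Below their hosts, MIR3658 had -1.94 in the authors' deposited table (average log2 CPM 2.95) against -0.31 for UCK2, which phosphorylates uridine and cytidine. The scarce MIR4707 and MIR4709 had -5.76 against -0.94 for HAUS4 and -3.66 against -1.28 for NPC2, both called close to the threshold (adjusted p = 0.0447 and 0.0474). MIR6516 had 2.96, beside 3.07 for the overlapping scaRNA SCARNA16 and 2.28 for the host SNHG20. MIR3648-1 and MIR3648-2 reached 6.14 and 5.75 and were the most abundant microRNA rows, at average log2 CPM of 7.31 and 6.46. A row known only as FP671120.2, typed as microRNA and next to MIR3648-1, had 6.12. All 3 lie among repeats of ribosomal DNA, and reads of the ribosomal RNA precursor cannot be told apart from theirs here.

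Host transcripts of microRNAs, on the other hand, leaned one way. Of 20 genes named as microRNA hosts (MIR...HG) 15 were positive and 0 negative (median 2.42), beside 24.0% and 27.0% over all rows. MIR29B2CHG had 4.15 (adjusted p = 0.00015) and MIR4435-2HG, the most abundant, 2.43 (adjusted p = 2.6e-06) in the authors' deposited table. snoRNA host transcripts named SNHG were mixed, with 10 positive and 4 negative of 22, 45.5% and 18.2% (median 0.32). SNHG3 had 3.98 in the authors' deposited table, and the abundant SNHG29 had -1.14. GAS5, a stress-responsive host of many C/D box RNAs, had 0.44 and was not called (adjusted p = 0.0946).

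Spliceosomal RNAs of both the major and the minor spliceosome were positive in most of their rows. RNU4-1 and RNU4-2, the U4 genes, had 4.96 and 4.77 in the authors' deposited table (adjusted p = 8.98e-05 and 1.92e-05). U5 RNAs were positive for 7 of 8 rows, led by RNU5A-1 at 4.08 and RNU5B-1 at 3.95. U6 rows were positive for 9 of 10, with a median of 2.63. RNU2-1, a U2 gene, had 1.92 and RNU2-2P 1.36. The minor spliceosome RNAs RNU11, RNU12, RNU4ATAC and RNU6ATAC had 2.36, 2.42, 2.36 and 2.63 in the authors' deposited table.

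Copies of an snRNA gene differed from each other. Among U1 rows, RNU1-1 to RNU1-4 were positive for 4 of 4 and lay between 3.07 and 3.30. RNU1-27P and RNU1-28P, rows named as pseudogenes of U1, were higher, at 5.28 and 4.62 in the authors' deposited table, and also more abundant, at average log2 CPM of 9.77 and 9.02. Variant U1 genes (RNVU1) were positive for 8 of 16, with a median of 1.24. The array of U2 genes on chromosome 17 had 12 of 13 rows positive, and 17 rows of 5S ribosomal RNA genes were all positive between 1.72 and 1.88. Near-identical copies share reads that the counting may have split, so rows of such arrays are not separate measurements.

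Abundant RNAs of other particles went both ways. RMRP, the RNA of RNase MRP, had 2.02 in the authors' deposited table (adjusted p = 4.44e-05), and RPPH1, the RNA of the related RNase P, had -0.05 (adjusted p = 0.867). Both were highly abundant, at average log2 CPM of 10.72 and 10.57. TERC, the telomerase RNA, which has an H/ACA domain, had 1.24. RN7SL1, RN7SL2 and RN7SL3, genes of the cytosolic signal recognition particle RNA, had -1.12, -1.30 and -1.37 in the authors' deposited table, and all 5 RN7SL rows with an average log2 CPM of at least 10 were negative. RN7SK, which holds the elongation factor P-TEFb inactive in the nucleus, had -0.79 (adjusted p = 0.0159). Vault RNAs differed in sign, with VTRNA1-1 at 1.49 (adjusted p = 0.00695) and VTRNA1-3 at -0.38 (adjusted p = 0.167). Y RNAs, partners of the Ro protein, had 3 positive and 0 negative of 11, and these 27.3% positive lie near the 24.0% of all rows. RNA5-8SN2 and RNA5-8SN3, genes of 5.8S ribosomal RNA, had 1.34 and 1.52, and RNA5-8SN1 had 0.72 without a call.

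Transcripts of the mitochondrial genome had the lowest median of any chromosome, and its called rows were negative on the plus strand and positive on the minus strand. Whether the strands differ was not tested. Of 28 plus-strand rows 17 were negative and 0 positive, with a median of -2.00. Of 9 minus-strand rows 0 were negative and 2 positive, with a median of 0.46. The ribosomal RNAs MT-RNR2 and MT-RNR1 had -3.93 and -2.72 in the authors' deposited table at average log2 CPM of 16.78 and 14.25, and MT-RNR2 had the highest abundance of all rows. All 12 mRNAs of the plus strand were negative, from -1.86 for MT-ND3 to -3.18 for MT-ATP8 (median -2.45). The only mRNA on the minus strand, MT-ND6, a subunit of complex I, had 0.06 in the authors' deposited table (adjusted p = 0.943), although its average log2 CPM of 7.84 was close to the 7.89 of MT-ND3.

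Most mitochondrial tRNAs were scarcer and not called. On the plus strand 3 of 14 were negative and 0 positive, led by MT-TT at -2.19 and MT-TK at -1.31. On the minus strand 2 of 8 were positive, MT-TQ at 2.17 (adjusted p = 0.00293) and MT-TS1 at 1.64 (adjusted p = 0.0104). MT-TD and MT-TA had larger values, -4.63 and 2.97 in the authors' deposited table, without a call. Uncalled rows had either sign on both strands, such as MT-TM at 1.19 and MT-TL2 at 1.02 on the plus strand and MT-TC at -0.70 on the minus strand. Transcripts of the opposite strand cover most of these genes, and since the strand setting of the counting is not stated, their part in the values was not tested.

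**Figure D3:**
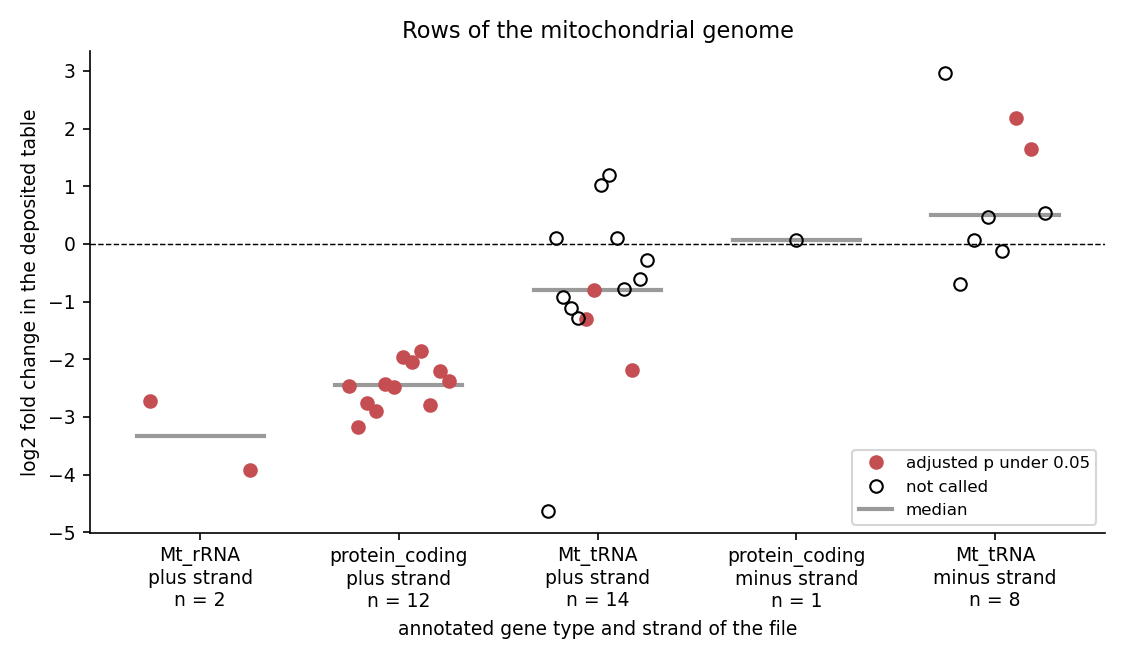
Log2 fold change as deposited by the authors (y axis) of the 37 rows of the mitochondrial genome, by gene type and strand (x axis). Filled red points were called at an adjusted p under 0.05, open points were not, and grey bars are medians; the 12 plus-strand mRNAs lie between -3.18 and -1.86, and the minus-strand MT-ND6 at 0.06.

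A list of well-known long noncoding RNAs, most of them nuclear, was mostly positive. Of its 13 genes 11 were listed, with 9 positive, 1 negative and 1 not called (median 1.41), beside 24.0% positive over all rows. KCNQ1OT1, which silences imprinted neighbours on chromosome 11, had 5.11 in the authors' deposited table (adjusted p = 0.00164), and NEAT1, the scaffold of paraspeckles, 5.06 (adjusted p = 0.000788). FTX had 3.05, MALAT1, an RNA of nuclear speckles, 2.64, and PVT1 2.25. TUG1 had 1.41, JPX 0.98 and NORAD, a mostly cytoplasmic RNA that binds Pumilio proteins, 0.74. The negative member was OIP5-AS1 at -0.47 (adjusted p = 0.023).

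Most naming classes of lncRNAs had positive shares near the 35.8% of all lncRNAs, beside 24.0% over all rows. Genes named LINC were positive for 65 and negative for 6 of 157, a positive share of 41.4% (median 1.00). Antisense genes (-AS) were positive for 108 and negative for 20 of 312, a positive share of 34.6% (median 0.73). Divergent transcripts (-DT) start at a promoter and run away from its gene. They had 21 positive and 1 negative of 61, a positive share of 34.4% (median 0.81). Intronic transcripts (-IT) were fewest and highest, with 6 of 8 positive and a median of 3.27. FOXP1-IT1 had 4.66 and N4BP2L2-IT2 3.72 in the authors' deposited table. Exceptions were found at high and low abundance. LINC00467 had -1.75 (adjusted p = 2.0e-05), and LINC00632, the host of the circular RNA CDR1as, had -0.17 at an average log2 CPM of 9.34 without a call. RNASEH1-AS1 had -2.64 (adjusted p = 3.8e-05). The scarcer RFX5-AS1, RARA-AS1 and DGUOK-AS1 had -4.003, -3.49 and -3.19 in the authors' deposited table, at average log2 CPM of 0.99, 0.58 and 1.42. Without a stated strand setting, reads of an antisense gene and its partner may be mixed. TEC rows, which are transcripts to be experimentally checked, had 28 positive and 1 negative of 76, a positive share of 36.8% (median 1.07).

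Pseudogene types differed. Transcribed unprocessed pseudogenes, copies made by duplication of a gene with its introns, had 141 positive and 22 negative of 285 (median 0.99). SMG1P3 and SMG1P1, copies of the mRNA surveillance kinase SMG1, had 2.83 and 2.75 in the authors' deposited table, and DNM1P47 had 4.58. Untranscribed unprocessed ones had 26 positive and 11 negative of 107, 24.3% and 10.3%, so their positive share was near that of all rows (median 0.41). Transcribed processed pseudogenes, which are retrocopies too, had 18 and 10 of 92 (median 0.45). Rows typed only as processed pseudogenes had the opposite balance, most of all at high abundance: in the top quintile of average log2 CPM all 17 were negative, with a median of -2.03. Those named after ribosomal proteins were negative for 45 of 104 and positive for 2 (median -1.05), and the other 409 had 88 negative and 58 positive (median -0.28). RPS2P5, at -2.09 in the authors' deposited table, lay below its parent RPS2 at -1.30. HMGB1P6, a copy of the chromatin protein HMGB1, had -2.71. Reads of such copies cannot be told apart from reads of the parent mRNA here.

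The log2 fold change of mRNAs went with the listed length of the gene, a column of the file that reaches 55886 bases and so is no length of 1 transcript. The 13210 protein-coding rows were split into quintiles of that length. Genes are not independent replicates, and length, abundance and read count are tied. In the shortest quintile, up to 2919 bases, 1383 rows were negative and 131 positive (median -0.90). In the longest, from 8652 bases, 335 were negative and 1235 positive (median 0.54). The medians of the 3 quintiles between were -0.45, -0.13 and 0.19.

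The trend was present at every abundance. In the lowest quintile of average log2 CPM the median went from -0.22 for the shortest rows to 0.99 for the longest, and in the highest quintile from -1.48 to 0.33. Of the longest rows, the 1302 with a span in the top quintile had 669 positive and 105 negative, and only 9 had a span in the lowest, with 5 positive and 0 negative. Of the shortest rows, the 103 with a span in the top quintile had 40 negative and 3 positive, and the 1383 with a span in the lowest quintile had 729 negative and 68 positive. In 334 protein-coding rows the listed length equals the span, as in a gene of 1 exon, and 115 were negative and 37 positive (median -0.26). Without replication-dependent histones 295 remain, with 79 negative and 37 positive (median -0.09).

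**Figure D4:**
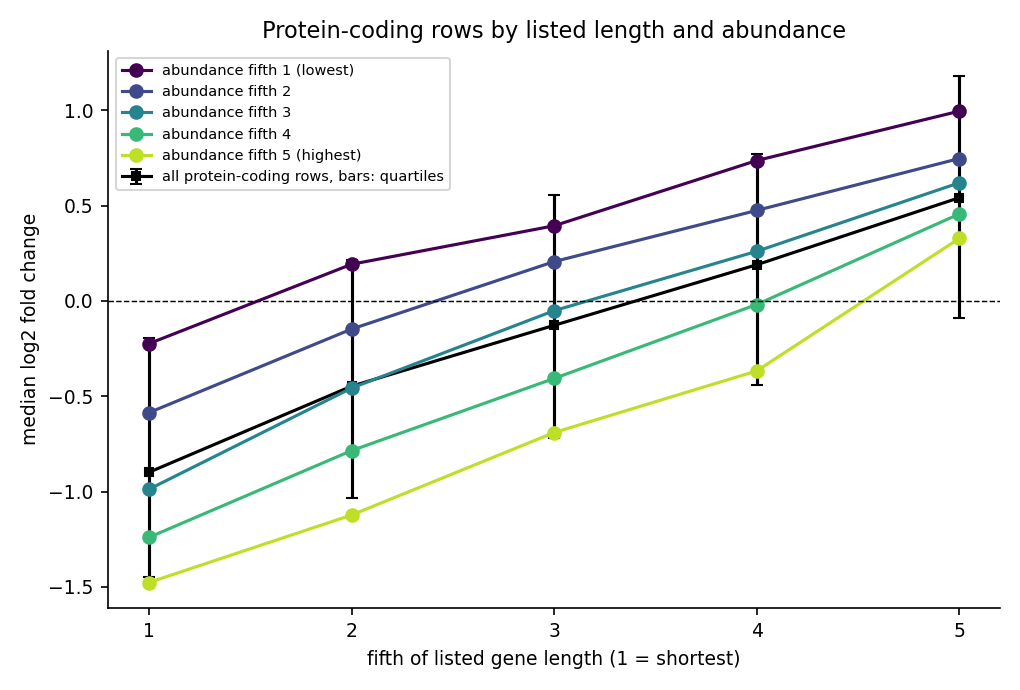
Median log2 fold change of protein-coding rows (y axis) by quintile of listed gene length (x axis, 1 is shortest). Coloured lines are the quintiles of average log2 CPM, and black squares with bars are the medians and quartiles of all protein-coding rows; every line climbs, the lowest quintile from -0.22 to 0.99 and the highest from -1.48 to 0.33.

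Housekeeping machines were negative almost throughout, beside 27.0% negative over all rows. Their median listed length ran from 2544 bases for mitochondrial ribosomal proteins to 5150 for genes of entry into the endoplasmic reticulum. That of all protein-coding rows was 5228. Of 32 genes for proteins of the small ribosomal subunit 30 were negative and 0 positive (median -1.44), and of 52 for the large subunit 51 and 0 (median -1.50). RPL22L1 and RPL22, paralogs in the large subunit, had -2.95 and -2.40 in the authors' deposited table. Rows of mitochondrial ribosomal proteins were negative for 67 of 78 and positive for 0 (median -1.34). The proteasome had 34 of 35 negative (median -1.26), with its subunit PSMA7 at -2.26. Cytosolic chaperonin genes (CCT) had 8 of 9 negative (median -1.19). Of 16 genes for the entry of proteins into the endoplasmic reticulum 13 were negative and 0 positive (median -1.27), among them SRP9 and SRP14, proteins of the particle that holds 7SL RNA, at -2.02 and -1.95 in the authors' deposited table.

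Nuclear genes of the respiratory chain followed. ATP synthase subunits were negative for 18 of 18 (median -1.64), cytochrome c oxidase genes for 18 of 20 (median -1.58), complex I genes for 37 of 47 (median -1.45), and the complexes between them for 11 of 13 (median -1.50). None of these genes was positive. COX17, which hands copper to cytochrome c oxidase, had -3.25 in the authors' deposited table (adjusted p = 2.1e-06), and COX6C and COX7C had -2.93 and -2.85. NDUFS1, the largest subunit of complex I, had -0.34 and COX15, an enzyme of heme A synthesis, -0.46, both without a call.

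Replication-dependent histone mRNAs, which end in a stem-loop in place of a poly(A) tail, were negative for 46 of 51 and positive for 0 (median -1.61). H2AC21 had -2.75, H1-2 -2.29 and H1-4, the most abundant, -1.68 at an average log2 CPM of 11.95 in the authors' deposited table.

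The medians of these families were nearer 0 when read against mRNAs of like length and abundance. From each member the median of protein-coding rows in its quintile of length and quintile of abundance was subtracted. Those rows include the family members themselves, which can draw the medians toward 0, and how far was not tested. The medians then were -0.26 and -0.49 for small and large ribosomal subunit proteins, -0.35 for histones, -0.51 for the proteasome and 0.03 for the chaperonin. Cytochrome c oxidase and ATP synthase genes had -0.96 and -0.72, and complex I genes -0.66.

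**Figure D5:**
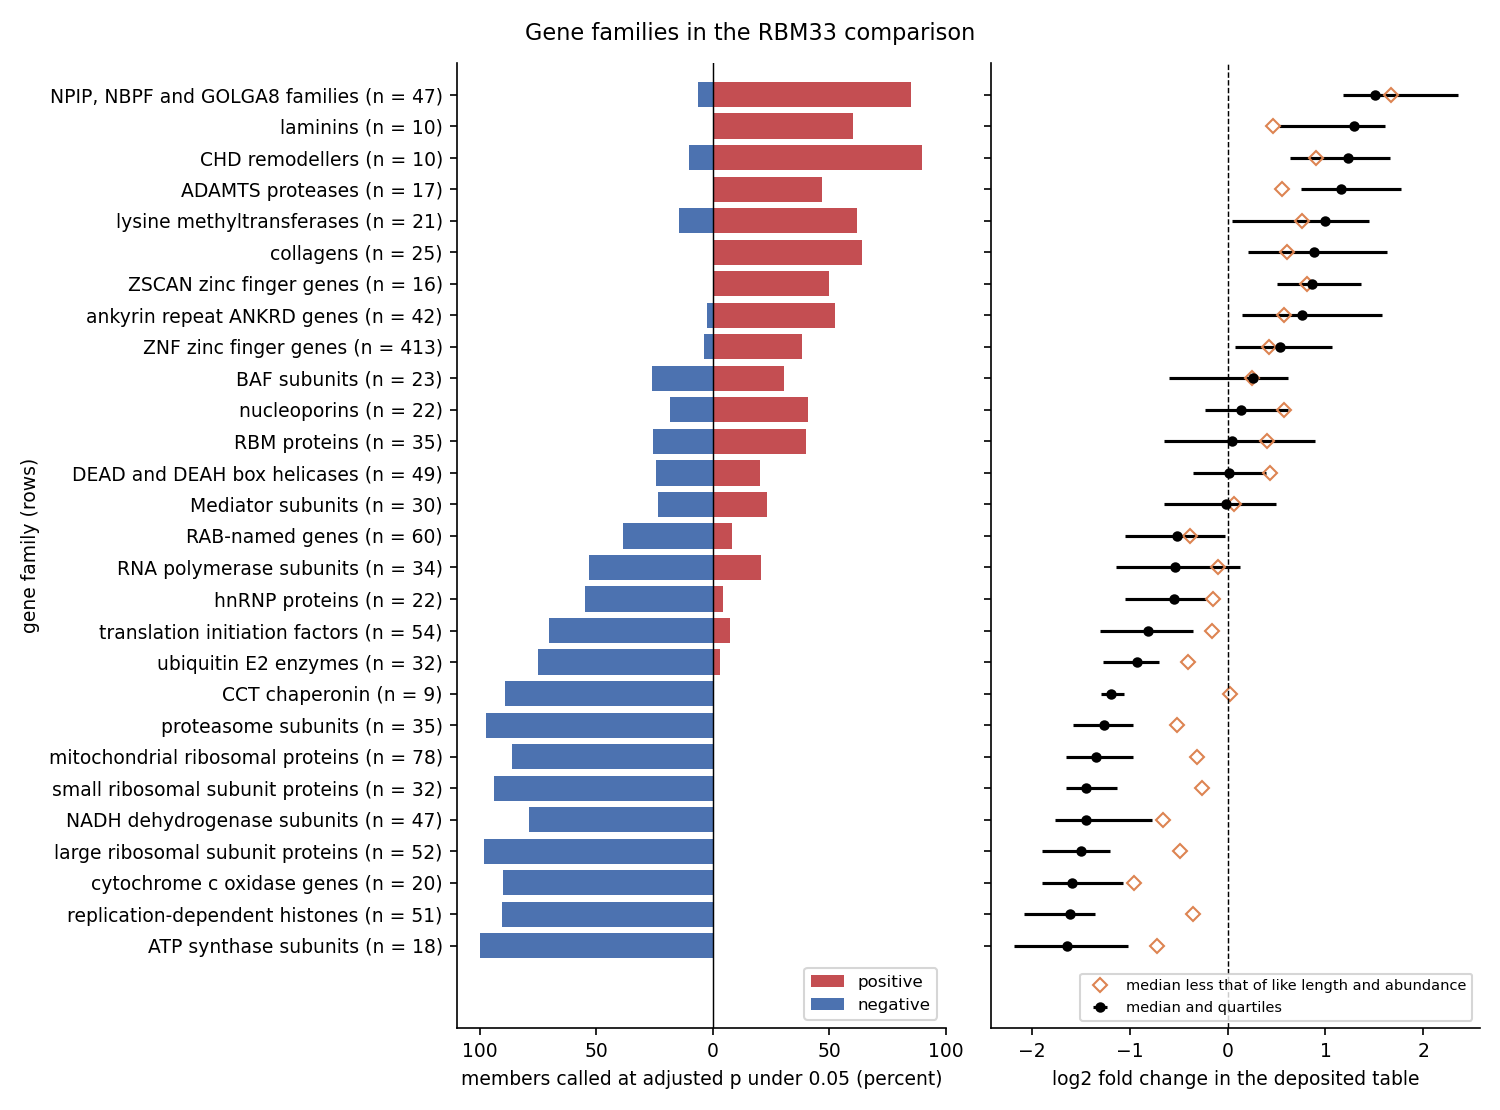
Share of members called positive (red, to the right) and negative (blue, to the left) in 28 gene families at left, and at right the median log2 fold change with quartiles (black) and the median after subtracting that of protein-coding rows of like length and abundance (orange diamonds). Families are ordered by their median, from ATP synthase subunits at -1.64 to the NPIP, NBPF and GOLGA8 families at 1.51; the diamonds lie nearer 0 than the black points for every family from RAB-named genes down.

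On the positive side stood families of chromatin and transcription regulators, read beside 24.0% positive and 27.0% negative over all rows. CHD remodellers, helicases that move nucleosomes, had 9 of 10 positive and 1 negative (median 1.23, and 0.90 against rows of like length and abundance). CHD8 had 1.99 in the authors' deposited table (adjusted p = 9.7e-06), and the small relative CHD1L was the negative one at -0.75. Lysine methyltransferases had 13 of 21 positive and 3 negative (median 0.99, and 0.76 against rows of like length and abundance). KMT2D, which methylates histone H3 at enhancers, had 3.27 (adjusted p = 3.67e-06), SETD1B 2.70 and KMT2A 2.02, while SETD3, a methyltransferase of actin, had -1.08. ZNF zinc finger genes, mostly repressors of transcription, had 159 positive and 16 negative of 413, and 238 were not called. Their median was 0.53, and 0.42 against rows of like length and abundance. ZSCAN genes had 8 positive and 0 negative of 16 (median 0.87, and 0.81 against such rows). ZNF266 had 2.37 and ZSCAN23 2.40 in the authors' deposited table, and the nucleolar ZNF330 was among the negative members at -1.76.

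Families of matrix and surface proteins with long listed lengths differed, read beside 24.0% positive and 27.0% negative over all rows. Collagens had 16 of 25 positive and 0 negative (median 0.88), led by COL4A5, a chain of basement membrane collagen, at 3.40 and COL7A1 at 3.33. Laminins had 6 of 10 positive and 0 negative (median 1.29), with LAMA5 at 3.29 in the authors' deposited table and the abundant LAMC1 at -0.04 without a call. ADAMTS proteases had 8 of 17 positive and 0 negative (median 1.16). Plexins and semaphorins, receptors and ligands of axon guidance, had 9 of 25 positive and 0 negative (median 0.81), with SEMA6C at 4.52. Against rows of like length and abundance the medians were lower, 0.61 for collagens, 0.47 for laminins, 0.55 for ADAMTS genes and 0.14 for plexins and semaphorins. Protocadherins had 2 of 9 positive, 22.2% and so near the background, and 0 negative (median 0.43, and -0.03 against rows of like length and abundance). Integrins, receptors for the matrix, had 2 positive and 4 negative of 17, 11.8% and 23.5%, the latter near the background (median -0.15, and -0.41 against such rows). ANKRD genes with ankyrin repeats had 22 positive and 1 negative of 42 (median 0.76).

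The NPIP, NBPF and GOLGA8 genes, primate families spread by segmental duplication, were positive for 40 of 47 and negative for 3 (median 1.51). Here the median was 1.67 against rows of like length and abundance. NPIPB5 had 3.11 (adjusted p = 9.8e-06) and GOLGA8B 3.14 (adjusted p = 0.017) in the authors' deposited table. GOLGA8A, at 3.22, was not called (adjusted p = 0.058). Members are near-identical and may share reads, so the count is not one of separate measurements.

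Complexes were read beside 24.0% positive and 27.0% negative over all rows. RNA polymerase subunits had 7 positive and 18 negative of 34. POLR2A, the large catalytic subunit of RNA polymerase II with 8355 listed bases, had 1.39, and POLR2I, a small subunit with 1137, had -2.06 in the authors' deposited table. Mediator had 7 positive and 7 negative of 30, each 23.3% and so near the background, with MED13L (32862 listed bases) at 1.44 and MED19 (1877) at -1.74. BAF chromatin remodelling genes had 7 positive and 6 negative of 23, 30.4% and 26.1%, also near it. ARID1A had 1.72 and SMARCB1 -1.81, although their listed lengths, 15939 and 16526 bases, are alike. Translation initiation factors had 4 positive and 38 negative of 54 (median -0.81). The 4 were EIF4A1 (1.69), EIF4A2 (1.03), EIF4G3 (0.81) and EIF4G1 (0.53), all of the cap-binding complex eIF4F. EIF4A1 and EIF4A2 hold positive snoRNA rows, such as SNORD10 at 5.04 and SNORA81 at 5.71. Such rows can share reads with their host, and their part in the values of EIF4A1 and EIF4A2 was not tested.

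RNA-binding proteins were read in the same way. DEAD and DEAH box helicases had 10 positive and 12 negative of 49, 20.4% and 24.5%, near the shares of all rows, with DDX17 at 2.81 and DDX5 at 1.76 in the authors' deposited table. hnRNP genes, packaging proteins of nuclear RNA, had 1 positive, HNRNPH1 at 0.74, and 12 negative of 22, with HNRNPD at -1.55. SR splicing proteins had 2 positive and 3 negative of 12. RBM genes had 14 positive and 9 negative of 35, the bait included. RBM14 had 2.01, RBM12B 1.93 and RBM34 -1.55.

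The genes of the m6A machinery had 7 positive and 4 negative of 21 (median 0.25), a called share of 52.4% beside 51.1% over all rows. Among the writers RBM15 had 1.65 (adjusted p = 3.78e-05), METTL3, the catalytic subunit, 0.95, ZC3H13 0.94 and VIRMA 0.59 in the authors' deposited table. WTAP, another subunit, had -0.70 and CBLL1 -0.55, and METTL14 was not called at -0.18. The erasers ALKBH5 and FTO had -0.21 and -0.03 without a call. Readers split, with YTHDC2 at 0.94, YTHDC1 at 0.57, IGF2BP2 at -0.45 and HNRNPC at -1.12. YTHDF1 had 1.10 without a call (adjusted p = 0.22), and YTHDF2 and YTHDF3 lay near 0, at 0.15 and 0.26.

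Single mRNAs reached values well beyond their families. Among called protein-coding rows of at least median abundance, the highest in the authors' deposited table were ADAMTS13, the protease that cuts von Willebrand factor, at 3.66, PGGHG and LENG8, both at 3.62, DNHD1 at 3.44 and OGT at 3.43. OGT encodes the enzyme that adds O-linked N-acetylglucosamine, and its call was close to the threshold (F = 16.8, adjusted p = 0.04). LENG8 (F = 211, adjusted p = 3.17e-06) and MBD6 (3.37, F = 293, adjusted p = 1.58e-06) were far from it. The lowest in the authors' deposited table after COX17 and MT-ATP8 were AL034430.1 at -3.11, SH3BGRL at -2.98 and RPL22L1 at -2.95, and the keratin KRT10 had -2.90.

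Chromosomes differed little for protein-coding genes apart from the mitochondrial one. Medians ran from -0.28 on chromosome X to 0.04 on chromosomes 15, 16 and 19. Chromosome 19, rich in zinc finger genes, had the highest median against rows of like length and abundance, 0.22, and chromosome 4 the lowest, -0.27. On chromosome 16 the median moved from 0.04 to -0.028 once the NPIP, NBPF and GOLGA8 families were left out. Over all gene types chromosome 21 stood highest with 0.44, and its 132 protein-coding rows had a median of -0.23. Its other rows include the microRNA and lncRNA rows beside the ribosomal RNA genes.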

How the data were processed

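RIP-seq libraries of Strep-RBM33 pull-down and input (2 and 2 by title) underlie 1 table of the authors' comparison, whose 16324 rows were used. Trimming, alignment, counting and testing tools named in the submitters' processing notes are cutadapt 1.18, HISAT2 2.1.0, Subread 1.6.4 with featureCounts, and edgeR 3.24.3, on build hg38. For annotation release, strand setting, low-count filter and normalization the entry is: not given in the sources used here. Per the file headers, fold change and mean abundance in CPM were deposited as log2 values. The F statistic deposited by the authors is a score. Beside it the authors deposited a p-value and its Benjamini-Hochberg adjustment, which was recomputed and differed by at most 1.25e-15. Gene length, position and type were also deposited by the authors.

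Computed here, with Python 3.11.15, pandas 2.3.3 and scipy 1.17.1, were counts at the authors' adjusted p under 0.05 by sign, medians and quartiles. The planned rank correlations are not reported here. A count model over libraries had been planned for the case of counts per library; the table has none. Named genes were, per group, up to 4 called rows at each end, the 3 most abundant and the 3 most abundant without a call, every member of lists under 15, and for all rows the 10 called rows at each end of at least median abundance. Named outside this rule, after their values were seen, were small RNA rows with their hosts, mitochondrial tRNAs, members of the m6A list and single rows set beside their group. Members, families and lists were chosen with earlier results of these data known. The scripts' recovery of known groups was tested on simulated data. Depth per library is unknown. Alternatives were an adjusted p under 0.01, a minimum of 1 log2 unit, rows of at least median abundance, and others given below, of which 3 were added after seeing the data.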

Additional observations from a re-analysis of the deposited data

How the results depend on the processing

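No paired analysis was possible because the table holds no values per library, and no replicate could be left out for the same reason. Of the alternatives on counts and medians that answer a comparison, 77 values stayed within 1.5 times the main one and 22 did not. Keeping rows of at least median abundance left 1978 positive calls in all, 39 for snoRNAs, 8 for scaRNAs, 29 for snRNAs, 96 for lncRNAs, 1709 for protein-coding rows, 79 for ZNF genes, 6 for collagens, 18 for the NPIP, NBPF and GOLGA8 families, 10 for ANKRD genes, 122 on chromosome 16 and 111 on chromosome 19, and 58 negative processed pseudogenes; fewer rows were tested there. Asking for at least 1 log2 unit left 2732 negative calls in all, 2478 negative and 1759 positive protein-coding rows and 105 positive ZNF genes. At an adjusted p under 0.01 positive calls were 3 for ribosomal RNA rows (20 at 0.05), 26 for the NPIP, NBPF and GOLGA8 families and 163 on chromosome 19. Of snoRNA rows that overlap no other row on their strand 6 were positive, and of such scaRNA rows 0, since nearly all lie inside a host. The median of the longest quintile of listed length less that of the shortest, a measure chosen after seeing the data, was 1.44 log2 units and lay between 1.06 (all rows) and 1.80 under its alternatives. Signs turned for the protein-coding median in the 2 lowest quintiles of abundance (0.29 and 0.10) and on chromosome 16 without the duplicated families (-0.028).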

Other observations

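Further gene families of the authors' deposited table, are described by counts in the same way, beside 24.0% positive and 27.0% negative over all rows. Ubiquitin E2 enzymes, which carry ubiquitin to its targets, had 24 negative and 1 positive of 32 (median -0.93); the positive one was UBE2O, a large enzyme of the class, at 0.74. Ubiquitin-specific proteases, which remove ubiquitin, had 15 positive and 9 negative of 48, with USP49 at 1.53 and USP1 at -1.28 in the authors' deposited table. DNAJ chaperones had 3 positive and 16 negative of 37, and the spliceosome-associated DNAJC8 stood at -1.89. Genes named for RAB GTPases, switches of vesicle traffic, had 5 positive and 23 negative of 60 (median -0.52), counted by name, so that effectors and regulators are among them. RAB13 had -2.30. Of the 5 positive rows RAB40C (1.37) was a GTPase. The others were the effectors RAB11FIP3 (0.83), RAB11FIP5 (0.77) and RAB11FIP1 (0.55) and RAB3GAP2 (0.42), a subunit of a complex that acts on RAB proteins. Exchange factors and GTPase-activating proteins of such switches had the other balance, with 11 positive and 1 negative of 22 ARHGEF genes (median 0.72) and 15 and 1 of 38 TBC1 domain genes (median 0.74).

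Aminoacyl-tRNA synthetases, which load tRNAs, had 4 positive and 17 negative of 38. The 4 were AARS2 (1.26), HARS1 (0.82), VARS2 (0.65) and TARS2 (0.60) in the authors' deposited table. Histone lysine demethylases had 8 positive and 2 negative of 17; the negative ones were KDM1A (-0.92) and KDM1B (-0.93), the flavin-dependent enzymes of the group, and KDM6B was highest at 1.85. Kinesins had 12 positive and 4 negative of 34, and nucleoporins 9 and 4 of 22. Notch receptors and ligands had 5 positive and 1 negative of 8, with NOTCH1 at 1.31, NOTCH3 at 1.23 and NOTCH2 at 1.06. HOX genes had 9 positive and 10 negative of 34, 26.5% and 29.4% and so near the 24.0% and 27.0% of all rows, with HOXD9 at 2.22 and HOXB7 at -1.76. Membrane proteins were spread on both sides: solute carriers had 40 positive and 56 negative of 223 (median -0.08) and TMEM genes 20 and 56 of 165 (median -0.32). All 4 listed keratins were negative, with KRT18 at -1.31 and KRT8 at -0.90 in the authors' deposited table.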
